A study of Nicotiana tabacum with 15 samples.

Results

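GJ is the F1 hybrid of the tobacco lines G (G70, its mother) and J (JCP, Jiucaiping No.2, its father), and the root transcriptome of GJ was set against that of G. The comparison uses the 3 GJ and 3 G libraries, 6 of the 15 libraries in the series, which also holds 3 libraries each of J, of K (K326) and of the hybrid KJ (K326 crossed with JCP). All plants were untreated seedlings of Nicotiana tabacum, and the GJ and G libraries differ in genotype alone as far as the labels say. The series asks which genes differ in expression between hybrids with strong root growth and their parents. The tissue entry gives young root, which was followed, although the sample titles name leaf, and this could not be checked with marker genes because none of the 69500 gene IDs (0 matches) is paired with a name in the annotation table used here. The study's methods say that seedlings chosen for root measurement were frozen and then used for sequencing, but not which seedling or pool gave which library, so the p-values below measure only the spread between libraries. Values are FPKM, fragments scaled to gene length and to the mapped total of the library, and the deposited table gives no read counts, so the depth behind each gene's value is unknown and no counting interval is given.

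An F1 hybrid carries 1 chromosome set from each parent, so its transcripts come from maternal and paternal alleles together. Heterosis, the better growth of a hybrid than of its parents, has been studied through genes whose expression in the hybrid lies above, below or between the parental levels. Tobacco is an allotetraploid, so many of its genes have a closely similar copy from the other ancestral genome, and short reads can be divided between such copies with error.

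A gene model was tested if 3 or more of the 6 libraries reached 1 FPKM, and 35258 of the 69500 met this. Of these, 30412 reached 1 FPKM in all 6 libraries. Another 257 reached it in the 3 GJ libraries and in no G library, and 449 reached it in the 3 G libraries and in no GJ library, so that these genes passed the filter through 1 genotype alone.

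The hybrid and its mother were separated at the level of whole libraries. On the first principal component of log2(FPKM + 1), which held 49% of the variance, the GJ libraries stood at 74.1, 44.1 and 46.0 (replicates 1, 2 and 3), and the G libraries at -68.2, -66.0 and -30.1. GJ replicate 1 lay farthest from the mother, and G replicate 3 lay nearest to the hybrid. The second component, with 25.3% of the variance, spread the G libraries over -73.3, 60.2 and 25.7, whereas the GJ libraries stood at 11.1, -10.7 and -13.0.

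**Figure D1:**
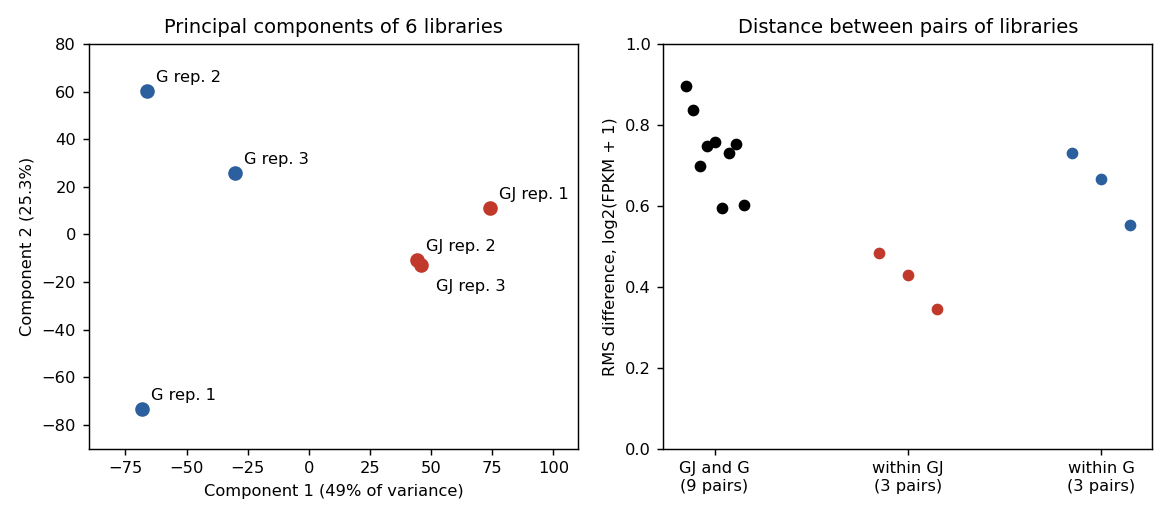
Left, the 3 GJ and 3 G libraries on the first 2 principal components of log2(FPKM + 1) over the 35258 tested genes; right, the root mean square (RMS) difference in log2(FPKM + 1) for each pair of libraries, 1 point per pair. The GJ libraries lie together on the right of the first component, and the 3 pairs within G (0.553 to 0.730) overlap the 9 pairs between GJ and G (0.596 to 0.895).

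The GJ libraries resembled each other more than the G libraries did. Pearson's r over the tested genes was 0.961 to 0.979 within GJ (3 pairs), 0.910 to 0.948 within G (3 pairs) and 0.864 to 0.937 between GJ and G (9 pairs). Each of these correlations runs over genes and describes the libraries, since genes do not replicate one another. The lowest r of all was that of GJ replicate 1 with G replicate 1 (0.864), and the highest between the genotypes was that of GJ replicate 2 with G replicate 3 (0.937). The pairs of G replicate 1 with the other G libraries (0.910 and 0.920) therefore fell within the range found between hybrid and mother. The median standard deviation of a gene on the log2 scale was 0.164 in GJ and 0.273 in G, beside 0.199 in KJ, 0.190 in K and 0.154 in J, so that G had the widest spread of the 5 genotypes.

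Library-wide measures differed little between the hybrid and its mother. The number of genes with at least 1 FPKM was 33714, 34319 and 34268 in GJ, against 35421, 34147 and 34839 in G (exact permutation test, two-sided, p = 0.3). At 50 FPKM or more there were 3235, 3222 and 3215 genes in GJ, against 3163, 3259 and 3330 in G (exact p = 0.7). Both measures overlapped between the genotypes. The 100 most abundant genes of each library took 11.8%, 11.5% and 12.8% of the summed FPKM in GJ, against 10.7%, 9.85% and 10.4% in G. This share was higher in all 3 GJ libraries, and its exact p of 0.1 (adjusted over 7 library measures to 0.35) is the smallest that 3 against 3 libraries can give. Genes between 1 and 10 FPKM were fewer in all 3 GJ libraries (20071, 19965 and 20211) than in the G libraries (20478, 20665 and 20686), again with the smallest possible exact p of 0.1.

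Gene by gene, 1801 of the 35258 tested genes (5.11%) were called changed in GJ, with higher values for 885 (2.51%) and lower values for 916 (2.6%). A call required limma's moderated test to give a p of 0.05 or less after Benjamini-Hochberg adjustment and a difference of at least 1 in log2(FPKM + 1), a scale that understates the change of low genes. The adjusted p alone passed 5202 genes (14.8%), of which 2132 were higher and 3070 lower in GJ, so most genes that passed it differed by less than the fold limit. The libraries of the 2 genotypes did not overlap for 11372 tested genes (32.3%), 4749 of them higher (13.5%) and 6623 lower (18.8%) in GJ. Among the called genes, 875 of the 885 higher and 900 of the 916 lower ones had no overlap.

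Most differences were small. The median GJ minus G difference was -0.06 on the log2 scale, the middle 50% of tested genes lay between -0.34 and 0.23, and the central 90% between -0.90 and 0.86. The median standard error of a difference was 0.185. Called genes had a median difference of 1.44 where GJ was higher and -1.35 where GJ was lower. A difference of 2 or more was reached by 195 genes in the direction of GJ (176 of them called) and by 205 genes in the direction of G (159 called). At 3 or more the numbers were 38 higher (37 called) and 44 lower (39 called), and at 4 or more they were 12 and 12, all called. The extremes were 5.86 and -6.09.

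**Figure D2:**
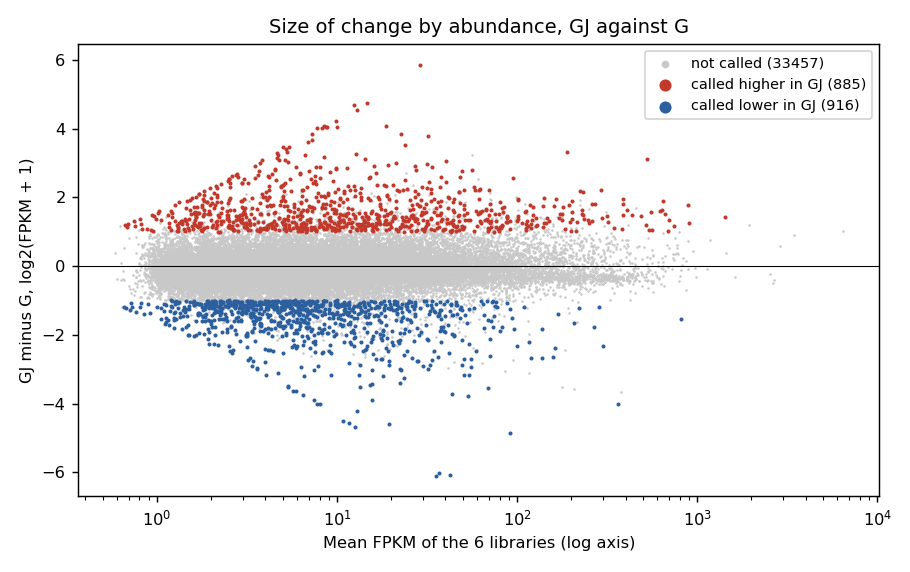
GJ minus G in log2(FPKM + 1) against the mean FPKM of the 6 libraries (log axis), 1 point per tested gene, with called genes in colour. Called genes lie beyond 1 and -1 by definition, and the few genes near 6 and -6 have mean levels between about 10 and 100 FPKM.

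The 8 largest rises among abundant genes, all with no overlap between the libraries, were genes below 0.5 FPKM in every library of the mother, except Nitab4.5_0001553g0050. Apart from that gene they passed the filter through GJ alone. All 8 were picked by size among the calls, so their p-values describe the gap and are not read as separate evidence. These genes, like most others below, are known here by ID alone. Nitab4.5_0005251g0020 stood at 52.9, 53.8 and 65.9 FPKM in the GJ libraries and was listed at 0 in all 3 G libraries (limma adjusted p = 4.38e-11). It was also listed at 0 in every library of the father J, whereas the other hybrid KJ had 24.1, 21.9 and 16.5 FPKM. Nitab4.5_0001327g0090 had a like pattern with more spread, at 4.84, 23.4 and 31.6 FPKM in GJ and 0 in the 3 G libraries (limma adjusted p = 5.83e-04). The father was at 0.11, 0 and 0 FPKM for that gene, so neither parent of GJ expressed it above 1 FPKM.

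The other 6 of these genes were expressed in the father. Nitab4.5_0006260g0030 had 33.4, 27.3 and 26.6 FPKM in GJ, against 0, 0.26 and 0.11 FPKM in G (difference 4.74 ± 0.139 SE, limma adjusted p = 4.49e-10). Its level in J was 18.1, 20.2 and 18.4 FPKM. Nitab4.5_0006260g0010, which shares the number of its ID with that gene, had 20.1, 24.7 and 29.8 FPKM in GJ and was listed at 0 in G, with 18.0 to 21.4 FPKM in J. A level in the hybrid close to that of the father was also seen for Nitab4.5_0005936g0020, at 26.5, 24.1 and 26.6 FPKM in GJ, against 0, 0.34 and 0.11 FPKM in G. Nitab4.5_0007650g0050 had 20.03, 19.5 and 19.1 FPKM in GJ, against 0.09, 0.11 and 0.11 FPKM in G, the narrowest spread of the 8. Nitab4.5_0000138g0020 had 17.4, 16.1 and 16.9 FPKM in GJ, against 0, 0.11 and 0.07 FPKM in G. For these 3 genes J lay at 21.5 to 29.2, 21.8 to 23.8 and 22.7 to 24.4 FPKM in the order named. Nitab4.5_0001553g0050 differed from them in that GJ, at 50.9, 29.2 and 28.1 FPKM, lay above the father (16.1, 9.28 and 9.54 FPKM) as well as above G (0.14, 2.99 and 1.13 FPKM).

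The 8 largest falls were genes that the mother expressed and that, but for Nitab4.5_0000013g0390, stayed below 1 FPKM in every GJ library. Apart from that gene they passed the filter through G alone. They too were picked by size among the calls, so their p-values are description in the same way. Nitab4.5_0003151g0070 was at 0, 0.16 and 0 FPKM in GJ, against 67.2, 68.8 and 76.6 FPKM in G (difference -6.09 ± 0.145 SE, limma adjusted p = 4.38e-11). The father had 62.6 to 76.2 FPKM, so the hybrid lacked a transcript that both of its parents had. Nitab4.5_0000363g0010 was at 0, 0.64 and 0 FPKM in GJ, against 57.4, 65.3 and 130 FPKM in G, and at 75.1 to 88.9 FPKM in J. Nitab4.5_0006411g0010 was at 0, 0.07 and 0.10 FPKM in GJ, against 38.4, 114 and 69.0 FPKM in G, and at 56.6 to 112 FPKM in J. Nitab4.5_0000287g0070 was listed at 0 in all 3 GJ libraries, against 19.98, 19.5 and 25.7 FPKM in G, and had 15.9 to 19.4 FPKM in J. All of these 4 genes were above 15 FPKM in every library of J and of G, and below 1 FPKM in every GJ library.

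The remaining 4 falls included 1 partial one. Nitab4.5_0000013g0390 stayed expressed in the hybrid, at 8.57, 5.69 and 2.36 FPKM in GJ, against 147, 141 and 244 FPKM in G (difference -4.85 ± 0.516 SE, limma adjusted p = 1.39e-04). Nitab4.5_0012336g0020 was at 0, 0.04 and 0.05 FPKM in GJ, against 19.98, 23.7 and 26.1 FPKM in G. Nitab4.5_0001439g0090 was listed at 0 in all 3 GJ libraries, against 22.7, 32.6 and 20.6 FPKM in G. J expressed all 3 of these genes, with a lowest library of 98.5, 9.16 and 7.29 FPKM in the order named. Nitab4.5_0001150g0020 was the exception, at 0.88, 0.38 and 0.66 FPKM in GJ, against 38.5, 44.3 and 32.6 FPKM in G, with only 0.41 to 0.46 FPKM in J, so the hybrid had the level of its father.

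**Figure D3:**
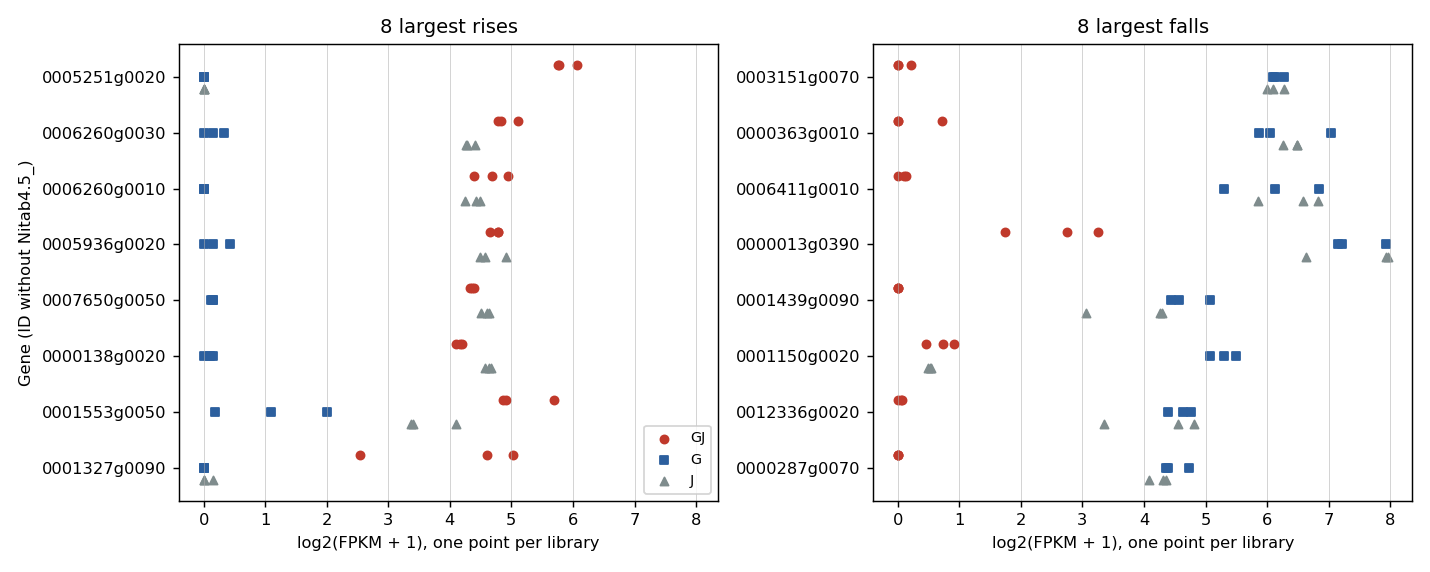
log2(FPKM + 1) of the 8 largest rises (left) and 8 largest falls (right) in GJ against G, 1 point per library of GJ, G and the father J. In the left panel G lies at or near 0, except for Nitab4.5_0001553g0050, and J lies near GJ for 5 of the 8 genes; in the right panel J lies well above GJ for all genes but Nitab4.5_0001150g0020.

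Genes listed at 0 in all libraries of 1 genotype and at 5 FPKM or more in all 3 of the other were few. All of them passed the filter through 1 genotype alone. The 4 listed at 0 in G were Nitab4.5_0005251g0020 and Nitab4.5_0006260g0010, described above, with Nitab4.5_0005251g0030 (5.43, 13.4 and 9.16 FPKM in GJ) and Nitab4.5_0008647g0010 (10.6, 8.90 and 10.8 FPKM in GJ). The last pair were also listed at 0 in every J library. The 7 listed at 0 in GJ were Nitab4.5_0000287g0070 and Nitab4.5_0001439g0090, described above, with 5 others. Nitab4.5_0000245g0270 had 19.6, 17.4 and 7.68 FPKM in G, Nitab4.5_0000363g0020 had 11.5, 10.9 and 11.8 FPKM, and Nitab4.5_0001740g0070 had 9.99, 7.64 and 6.55 FPKM. All 3 were expressed in the J libraries too, at 5.64 FPKM or more. Nitab4.5_0003168g0020 had 13.1, 9.85 and 9.05 FPKM in G and no more than 0.03 FPKM in J. Nitab4.5_0011815g0020 had 7.65, 15.6 and 8.85 FPKM in G, but its call rested on a limma adjusted p of 0.0494 and was lost whichever 1 of the 6 libraries was left out (adjusted p 0.0652 to 0.136), and J replicate 2 was at 0 as well.

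Genes expressed by 1 parent alone show how the hybrid stood between them. The limits used here, at least 5 FPKM in all 3 libraries of 1 parent and at most 0.5 FPKM in all 3 of the other, were chosen after values had been seen, so the counts are a description. G alone expressed 23 such genes. The mean GJ level of these was a median of 30.6% of that of G, within a range of 0% to 121%. GJ replicate 1 alone set much of this, since 14 of the 23 genes were at or below 0.5 FPKM in that library and above it in GJ replicates 2 and 3, and without it the median was 46.0%. Many of the 23 carry the ID numbers Nitab4.5_0001198 and Nitab4.5_0003626, described below, and weigh on both medians. No lean of the hybrid to either parent is therefore read from them. J alone expressed 32 such genes, of which 30 passed the filter, through GJ alone because G was at most 0.5 FPKM. Since both sets of genes were chosen by their level in G, their calls against G are not read as a result. For the same 30 of the 32, all 3 GJ libraries were above 0.5 FPKM, which passing the filter required. The GJ level of the 32 was a median of 80.5% of that of J, and 80.3% without GJ replicate 1. Nitab4.5_0000464g0060 was expressed by G alone among the parents and had 17.7, 22.7 and 20.03 FPKM in GJ, against 33.5, 33.0 and 30.3 FPKM in G.

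Abundant genes were called higher in the hybrid more often than lower. Classes were set by the mean FPKM of the 6 libraries. Of 3231 genes that averaged 50 FPKM or more, 147 were called higher in GJ (4.55%) and 52 lower (1.61%), so 73.9% of the calls were higher. From 10 to 50 FPKM the 11114 genes gave 282 higher (2.54%) and 268 lower calls (2.41%), and from 1 to 10 FPKM the 20581 genes gave 442 higher (2.15%) and 585 lower calls (2.84%). The 332 tested genes with a mean under 1 FPKM gave 14 higher and 11 lower calls. The calls of the most abundant class leaned to GJ although its median difference was -0.07 on the log2 scale, close to that of all tested genes.

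**Figure D4:**
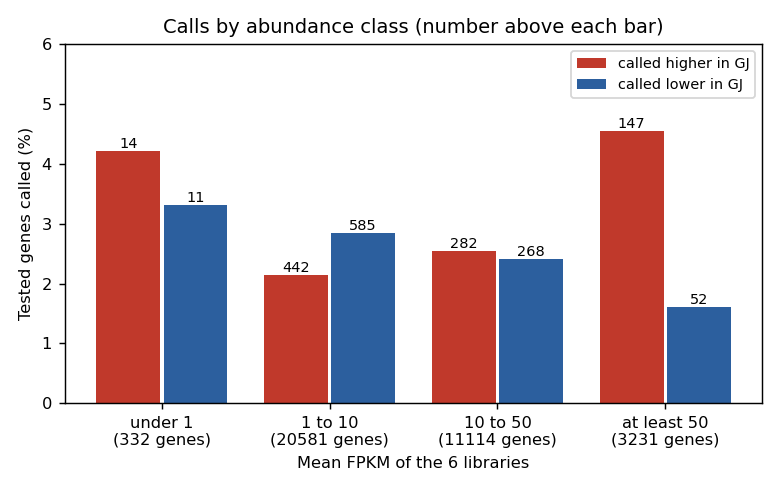
Share of tested genes called higher or lower in GJ than in G (percent) by class of mean FPKM over the 6 libraries, with the number of genes above each bar. In the class of at least 50 FPKM the bar for higher calls (4.55%) exceeds that for lower calls (1.61%), and from 1 to 10 FPKM the order is the other way (2.15% and 2.84%).

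How far these shares leaned depended on the libraries used. The share of higher calls in the class of at least 50 FPKM was 63.6% without GJ replicate 1, 61.7% without G replicate 1 and 56.3% (40 higher, 31 lower) without both. From 1 to 10 FPKM it was 43.0% with all libraries, 50.8% under median-of-ratios scaling and 52.9% under quantile normalization, so the small lean towards lower calls in that class turned with the scaling.

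The most abundant gene over the 6 libraries was Nitab4.5_0000309g0200, with 8617, 6488 and 10504 FPKM in GJ, against 4958, 2700 and 5330 FPKM in G. Its groups did not overlap, but it did not pass the test (difference 1.01 ± 0.340 SE, limma adjusted p = 0.0633). Without G replicate 3 it did (adjusted p = 0.0424), but with any other of the 6 libraries left out it did not (0.0688 to 0.211). The scaling mattered too. The difference of this gene was 1.09 under median-of-ratios scaling (limma adjusted p = 0.0438) and 0.21 under quantile normalization (0.455). Next was Nitab4.5_0000037g0340, with 4693, 3629 and 4711 FPKM in GJ, against 3053, 1169 and 3411 FPKM in G (limma adjusted p = 0.152).

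Of the called genes, the most abundant that were higher in GJ were Nitab4.5_0000180g0140 and Nitab4.5_0002218g0010. Nitab4.5_0000180g0140 had 1440, 2096 and 2597 FPKM in GJ, against 790, 407 and 1251 FPKM in G (difference 1.43 ± 0.379 SE, limma adjusted p = 0.0276). Nitab4.5_0002218g0010 had 904, 1311 and 1519 FPKM in GJ, against 535, 301 and 829 FPKM in G (difference 1.25 ± 0.322 SE, limma adjusted p = 0.0248). Both had G replicate 3 as the highest library of the mother and lost the call when GJ replicate 2, GJ replicate 3, G replicate 1 or G replicate 2 was left out (adjusted p 0.0521 to 0.0940). Among lower genes, Nitab4.5_0000295g0010 had 55.8, 37.3 and 34.1 FPKM in GJ, against 773, 696 and 592 FPKM in G (difference -4.01 ± 0.312 SE, limma adjusted p = 6.32e-06), and it kept the call without each library in turn. The most abundant called lower, Nitab4.5_0004646g0080, had 700, 281 and 332 FPKM in GJ, against 1112, 1488 and 981 FPKM in G (limma adjusted p = 0.0487), and it kept the call only when GJ replicate 1 was left out (adjusted p = 0.0448).

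Of the genes that the study annotated with roles in hormone signalling, root development or its central expression module, 17 were followed here by ID, which is a partial list of its hormone genes. GJ was called higher than G for 9 of the 17 and lower for 1, beside 2.51% and 2.6% of all tested genes, with a median difference of 1.56, beside -0.06 over all tested genes. The study chose them on these samples, so the count is not independent evidence of their direction. The 3 genes annotated with cell differentiation were all called higher and kept the call without each library in turn. Nitab4.5_0002714g0010 had 48.9, 48.8 and 41.1 FPKM in GJ, against 11.2, 9.27 and 9.49 FPKM in G (difference 2.11 ± 0.310 SE, limma adjusted p = 0.00173). Nitab4.5_0008353g0010 had 75.1, 113 and 99.4 FPKM in GJ, against 14.9, 14.8 and 28.6 FPKM in G. Nitab4.5_0002918g0030 had 28.0, 24.2 and 26.8 FPKM in GJ, against 1.98, 2.43 and 8 FPKM in G. The lowest GJ library stood above the highest G library for each of the 3, as it did for 13.5% of all tested genes.

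PR-1 codes for a secreted defence protein that is a marker of salicylic acid signalling. Of the PR-1 genes that the study annotated, only Nitab4.5_0003771g0010 was followed here. It had 2.82, 5.46 and 27.9 FPKM in GJ, against 0.71, 0 and 0.54 FPKM in G (difference 2.69 ± 0.615 SE, limma adjusted p = 0.0152). The groups did not overlap, although the GJ libraries differed widely, and without G replicate 2 the adjusted p was 0.0571. GH3 genes code for enzymes that join hormones such as auxin to amino acids, and the 4 of the study's GH3 genes followed here went different ways. Nitab4.5_0004473g0020 was higher at 9.72, 12.6 and 11.1 FPKM in GJ, against 3.47, 1.16 and 5.60 FPKM in G (limma adjusted p = 0.0223). Its call was lost whichever GJ library was left out (adjusted p 0.0576 to 0.0634), without G replicate 2 (0.0769) and with the 6 libraries alone (0.0817). Nitab4.5_0001954g0010 was lower at 0.73, 1.74 and 1.38 FPKM in GJ, against 3.67, 7.04 and 4.11 FPKM in G (limma adjusted p = 0.0103). It kept its call without each library in turn and with the 6 libraries alone (0.0479).

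The other 2 GH3 genes of the 4 were not called. Nitab4.5_0000562g0110 had 4.31, 2.40 and 5.57 FPKM in GJ, against 8.99, 6.41 and 8.30 FPKM in G (difference -0.85, limma adjusted p = 0.0357), within the fold limit. Nitab4.5_0001439g0060 had 5.95, 1.64 and 1.5 FPKM in GJ, against 0.61, 0.71 and 0.36 FPKM in G (difference 1.21, limma adjusted p = 0.0682), with GJ replicate 1 well above the other GJ libraries. AUX1 carries auxin into the cell. The 2 AUX1 genes followed here, not all that the study annotated, were not called. Both had lower values in all GJ libraries than in any G library, as did 18.8% of all tested genes. Nitab4.5_0001889g0140 had 0.74, 1.86 and 0.73 FPKM in GJ, against 2.69, 3.8 and 1.98 FPKM in G (difference -0.87, limma adjusted p = 0.0256). Nitab4.5_0009144g0020 had 0.94, 0.87 and 0.67 FPKM in GJ, against 1.64, 1.71 and 1.43 FPKM in G (difference -0.51, limma adjusted p = 0.0643). SAUR genes respond early to auxin, and Nitab4.5_0000063g0100, the only member of this family followed here, had 4.07, 5.81 and 3.50 FPKM in GJ, against 21.99, 8.12 and 7.35 FPKM in G, where replicate 1 alone was high (difference -1.16, limma adjusted p = 0.203). In the other parents, replicate 2 of J (31.1 FPKM) and replicate 2 of K (12.3 FPKM) likewise stood above the rest of their genotype.

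The 6 genes of the study's central module shared 1 pattern across the libraries, with the highest GJ value in replicate 1 and the highest G value in replicate 3. The study picked them for their many links in a co-expression module of these data. A shared pattern was therefore built into the choice and is not read as a result. The 3 protein kinases, enzymes that attach phosphate to other proteins, were all called higher. Nitab4.5_0003282g0020 had 20.01, 9.84 and 10.4 FPKM in GJ, against 1.41, 1.64 and 3.78 FPKM in G (difference 2.14 ± 0.403 SE, limma adjusted p = 0.00668). It kept the call without each library in turn and with the 6 libraries alone (0.0342). Nitab4.5_0004384g0070 had 20.6, 8.99 and 9.70 FPKM in GJ, against 2.44, 1.59 and 6.10 FPKM in G (limma adjusted p = 0.0177, and 0.0913 with the 6 libraries alone). Nitab4.5_0011528g0020 had 15.3, 5.64 and 5.73 FPKM in GJ, against 1.57, 1.29 and 3.39 FPKM in G (limma adjusted p = 0.0260). Neither of these kinases was called without GJ replicate 1 (adjusted p 0.0766 and 0.103), and leaving out G replicate 1 (0.0505 and 0.0681) or G replicate 2 (0.0692 and 0.0898) had the same effect.

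The same held for the lysine tRNA ligase gene Nitab4.5_0000119g0080, whose product loads lysine on its tRNA. It had 131, 75.5 and 73.4 FPKM in GJ, against 24.4, 22.5 and 47.9 FPKM in G (limma adjusted p = 0.0220). The adjusted p was 0.0918 without GJ replicate 1, 0.0634 without G replicate 1, 0.0802 without G replicate 2 and 0.0675 with the 6 libraries alone. Mitochondrial carriers move metabolites across the inner mitochondrial membrane, and the gene of this family, Nitab4.5_0009232g0030, had 19.6, 12.2 and 13.3 FPKM in GJ, against 6.64, 6.83 and 8.68 FPKM in G. It passed the adjusted p but not the fold limit (difference 0.92, limma adjusted p = 0.0217). The NAD dependent epimerase/dehydratase gene Nitab4.5_0002818g0040 had 19.3, 12.4 and 11.6 FPKM in GJ, against 7.19, 7.28 and 12.1 FPKM in G, and its groups overlapped (difference 0.65, limma adjusted p = 0.0864).

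Replicate 1 of GJ weighed heavily on which genes were called. Without it the number fell to 1043 (538 higher, 505 lower), and 981 of the 1801 genes were called again. Of the 820 genes that were lost, 549 were still past the fold limit. All 820 had an unadjusted limma p of at most 0.05, and 0 changed direction. These genes had been called with the remaining libraries included, so the choice of genes largely set both outcomes. By comparison, 1415 of the 1801 were called again without GJ replicate 2 and 1321 without GJ replicate 3, although the median standard error was much the same in all 3 (0.206, 0.210 and 0.212). GJ replicate 1 was the GJ library farthest from the G mean for 62.5% of the genes called higher and 61.4% of those called lower, and for 45.1% of all tested genes.

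Replicate 1 of G had a smaller part. Without it 1626 genes were called (775 higher, 851 lower), 1288 of the 1801 among them, and 338 were new. G replicate 2 mattered more, with 1254 genes called without it and 1080 of the 1801 among them. Leaving out G replicate 3, the G library nearest to the hybrid, raised the number to 2431 (1280 higher, 1151 lower), with 1600 of the 1801 genes kept. Without both first replicates 894 genes were called (453 higher, 441 lower), of which 758 were among the 1801. In all, 778 genes (404 higher, 374 lower, or 43.2% of the calls) were called with all libraries and without each of the 6 in turn. With the spread estimated from the 6 libraries alone in place of all 15, 956 genes were called (489 higher, 467 lower), 933 of them among the 1801.

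**Figure D5:**
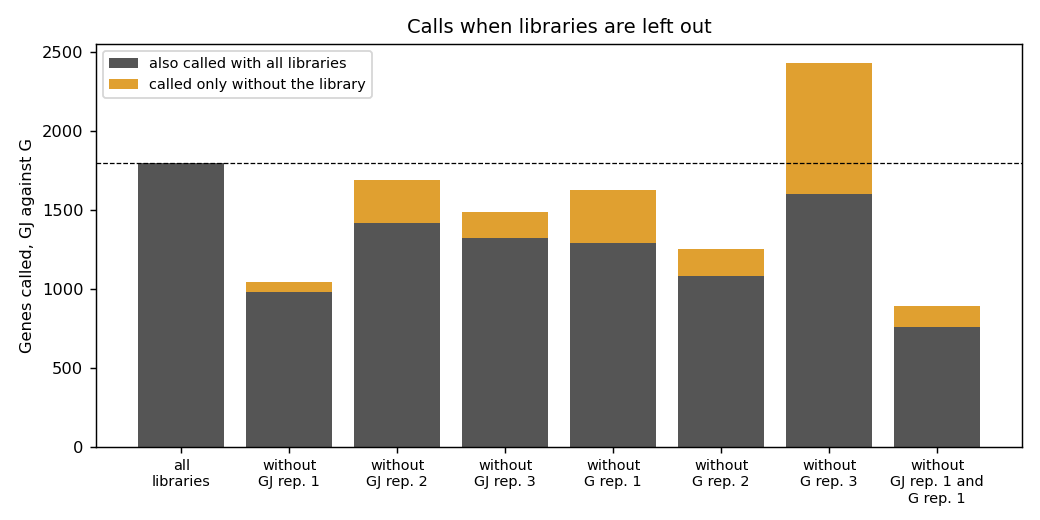
Number of genes called between GJ and G with all libraries and with 1 or 2 libraries left out, divided into genes that were also called with all libraries and genes that were not. The smallest number for 1 library is found without GJ replicate 1 (1043) and the largest without G replicate 3 (2431), and the dashed line marks 1801.

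A set of genes was missing from GJ replicate 1 alone. With limits chosen after values had been seen, 54 genes had at most 0.1 FPKM in GJ replicate 1 and at least 2 FPKM in each of the other 5 libraries. The same limits found 4 genes for GJ replicate 2, 4 for GJ replicate 3, and 18, 9 and 2 for G replicates 1, 2 and 3. Of the 54 genes, 34 fell in 5 ID numbers with 3 or more of them (14 in Nitab4.5_0001198, 7 in Nitab4.5_0001751, 6 in Nitab4.5_0003626, 4 in Nitab4.5_0006562 and 3 in Nitab4.5_0002587), whereas no ID number had 3 or more for any other library. Genes with the same ID number carry consecutive IDs, but their positions were not used here. The genes were chosen for a low value in GJ, so the 18 of them called lower, beside 2.6% of all tested genes, are not read as a result.

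Nitab4.5_0003626g0010 had 0.04, 285 and 300 FPKM in GJ, against 583, 545 and 557 FPKM in G. It was at 0, 0.09 and 0 FPKM in the father. The difference was -3.65 (limma adjusted p = 0.122), and without GJ replicate 1 it was -0.94 (adjusted p = 0.0145). The first replicate therefore made the estimate larger and less certain at once. Nitab4.5_0001198g0010 had 0, 19.5 and 16.5 FPKM in GJ, against 29.1, 23.8 and 25.3 FPKM in G, and was listed at 0 in J (difference -1.92, limma adjusted p = 0.120, and -0.51 with adjusted p = 0.0395 without GJ replicate 1). Both genes had in GJ replicate 1 the level of the father, and in the other GJ libraries a level below that of the mother. A gene that the father expressed was near 0 in this library as well, since Nitab4.5_0001198g0330 had 0.01, 15.8 and 17.1 FPKM in GJ, against 63.3, 51.1 and 45.3 FPKM in G, with 29.0 to 59.6 FPKM in J.

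The called genes that shifted most without GJ replicate 1 were of this kind. For Nitab4.5_0001198g0330 the difference was -2.99 ± 0.805 SE (limma adjusted p = 0.0290) with all libraries and -1.62 (adjusted p = 0.00579) without GJ replicate 1, and the call was lost without G replicate 1 (0.0711) or G replicate 2 (0.0743). Nitab4.5_0001198g0100, with 0.02, 8.63 and 9.10 FPKM in GJ, against 20.9, 18.7 and 17.4 FPKM in G, had a difference of -2.11 ± 0.623 SE (limma adjusted p = 0.0410) and -1.01 (adjusted p = 3.44e-04) without GJ replicate 1. It was not called whichever G library was left out (adjusted p 0.0534 to 0.0980).

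Those that shifted most without G replicate 1 were low in that library. Nitab4.5_0001810g0030 had 4.14, 8.36 and 8.93 FPKM in GJ, against 17.5, 97.9 and 189 FPKM in G (difference -3.17 ± 0.963 SE, limma adjusted p = 0.0450, and -4.13 with adjusted p = 0.0207 without G replicate 1). With any other library left out it was not called (adjusted p 0.0843 to 0.141). Nitab4.5_0012667g0020 had 0.33, 3.10 and 2.69 FPKM in GJ, against 5.53, 46.1 and 50.6 FPKM in G (difference -3.21 ± 0.840 SE, limma adjusted p = 0.0262, and -4.18 with adjusted p = 0.00803 without G replicate 1). Its call was lost without GJ replicate 1 (0.104), GJ replicate 3 (0.0514), G replicate 2 (0.0941) or G replicate 3 (0.0573). Both genes were also lower in replicate 2 of the father (19.7 and 8.18 FPKM) than in its other libraries (88.9 FPKM or more, and 40.4 FPKM or more). The same held for replicate 2 of K (1.78 and 1.48 FPKM), against 17.45 FPKM or more and 5.34 FPKM or more in its other libraries. The dip was thus seen in 1 library of each parental line, and its cause was not tested.

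Whether the hybrid differed from its mother in the same way in the other cross was tested as GJ minus G less KJ minus K. The difference passed the adjusted p and the limit of 1 for 268 of the 35258 genes (0.76%), with 158 positive (0.448%) and 110 negative (0.312%). Without GJ replicate 3 the count was 172, without G replicate 1 it was 468, and without both first replicates it was 729. The largest negative value among abundant genes was -5.85 ± 0.580 SE for Nitab4.5_0006411g0010 (limma adjusted p = 1.44e-04), which KJ expressed at 64.6 to 68.5 FPKM and K at 38.9 to 118 FPKM, so its near absence was found in GJ and not in KJ. The largest positive value was 4.68 ± 0.192 SE for Nitab4.5_0000138g0020 (limma adjusted p = 3.28e-08), at 10.6 to 16.0 FPKM in KJ and 18.4 to 22.8 FPKM in K. Here G alone among the 5 genotypes lacked the transcript.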

How the data were processed

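Root RNA of 5 tobacco genotypes was sequenced as paired-end libraries, 3 per genotype. Reads under 25 nt or of poor quality were discarded by the authors, who aligned the others to the genome of K326, quantified genes with RSEM and deposited FPKM to 2 decimals. The mapper is Tophat2 in the paper, whereas HISAT2 and StringTie stand in the labels, with versions not given in the sources used here. The steps between low values gave no whole reads (17.2% of 31607 values lay within 0.1 of a whole multiple), so no count test was run. Because FPKM is relative, a change in a few abundant genes moves all others.

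Genotype means of log2(FPKM + 1) were fitted over all 15 libraries with limma 3.58.1 (R 4.3.3; trend and robust options, no covariate, 10 residual degrees of freedom), and GJ was compared with G two-sidedly, with Benjamini-Hochberg adjustment over the 35258 genes that reached 1 FPKM in 3 or more of the 6 libraries. The procedure was tested on simulated data. Library measures were compared by exact permutation over the 20 splits. Other calculations used Python 3.11.15, NumPy 2.4.6 and matplotlib 3.10.9. Alternatives were another pseudocount, filter, scaling, set of libraries and replicate block.

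Named genes were the 8 largest called rises and falls with a mean of at least 5 FPKM in GJ or G and no overlap, the study's annotated genes, the 2 most abundant genes overall and among calls in each direction, the 2 called genes (mean of at least 5 FPKM in GJ or G) that shifted most without replicate 1 of either genotype, the 2 largest differences between crosses in each direction, and genes at 0 in 1 genotype and at 5 FPKM or more throughout the other. Genes shown as examples of ID numbers or of expression in 1 parent were chosen after their values were seen. Members and lists were chosen with earlier results of these data known. Of the 17 annotated genes, a partial list, 9 IDs come from the paper's text and the 8 hormone genes from an earlier reading by eye of a picture in it.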

Additional observations from a re-analysis of the deposited data

Results flagged for a closer look

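Of the 51 named genes, 18 differed between the crosses by limma's test of GJ minus G less KJ minus K, beside 0.76% of all tested genes. The limits were an adjusted p of at most 0.05 over 35258 genes and a size of at least 1 (log2 scale), which is what singled them out. Many of the named genes were chosen by the size of GJ minus G, which is part of this difference, and some by the difference itself. The count is therefore not read as a result.

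The difference was positive for 8 of them. It was 4.68 for Nitab4.5_0000138g0020, 4.67 for Nitab4.5_0001123g0010, 4.5 for Nitab4.5_0007650g0050, 4.48 for Nitab4.5_0005936g0020, 4.15 for Nitab4.5_0006260g0030, 4.09 for Nitab4.5_0006260g0010, 3.46 for Nitab4.5_0001553g0050 and 1.43 for Nitab4.5_0005251g0020. Nitab4.5_0001123g0010 had 14.7, 19.6 and 17.5 FPKM in GJ, against 0, 0.12 and 0.18 FPKM in G, and 12.1 to 14.9 FPKM in KJ, against 19.5 to 24.98 FPKM in K. Nitab4.5_0005251g0020 was listed at 0 in both mothers, so its value compares the level of GJ with that of KJ.

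The difference was negative for 10. It was -5.85 for Nitab4.5_0006411g0010, -5.67 for Nitab4.5_0003151g0070, -5.52 for Nitab4.5_0000363g0010, -4.32 for Nitab4.5_0001150g0020, -4.19 for Nitab4.5_0000287g0070, -3.90 for Nitab4.5_0000245g0270, -3.53 for Nitab4.5_0003168g0020, -2.99 for Nitab4.5_0000363g0020, -2.84 for Nitab4.5_0012336g0020 and -1.84 for Nitab4.5_0001740g0070. Nitab4.5_0003151g0070 had 0, 0.16 and 0 FPKM in GJ, against 67.2 to 76.6 FPKM in G, and 45.6 to 65.5 FPKM in KJ, against 71.7 to 85.2 FPKM in K. Nitab4.5_0000245g0270 and Nitab4.5_0003168g0020 were listed at 0 in GJ, KJ and K alike, so the value is that of GJ against G alone. Nitab4.5_0001150g0020 was below 1 FPKM in GJ, KJ and K, and G alone expressed it.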

How the results depend on the processing

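The 1801 calls (885 higher, 916 lower) became 1130 (528 lower) among genes that averaged 5 FPKM or more, where fewer genes were tested, 956 (489 higher, 467 lower) with the 6 libraries alone, and 894 (453 higher, 441 lower) without GJ replicate 1 and G replicate 1. With no fold limit they were 5202 (2132 higher, 3070 lower). Leaving out 1 library gave 1043 to 2431 calls, 538 to 1280 higher and 505 to 1151 lower. Added after the data were examined, the 6 libraries alone gave 286 calls (154 higher, 132 lower) without GJ replicate 1 and 1070 (460 higher, 610 lower) without G replicate 1. No lost gene changed direction under these alternatives (0 genes). The direction cannot change with another filter or with the 6 libraries alone, which keep the same differences. Lost genes had also been called with the libraries that remained, so this is not read as a result. The 268 calls for the difference between crosses became 114 at a mean of at least 5 FPKM, 729 without both first replicates, 1988 at an unadjusted p, and 172 (without GJ replicate 3) to 468 (without G replicate 1) with 1 library left out. For the number of genes with at least 50 FPKM, GJ minus G was -26.7, turned to 146 under median-of-ratios scaling, was -76 without both first replicates, and ran between -70.5 and 13.0 with 1 library left out, the highest without G replicate 3. The small excess of lower calls turned with the scaling (1002 higher and 752 lower by median of ratios, 979 and 774 by quantiles). The cause of these shifts was not tested. Also added after the data were examined, leaving out GJ replicate 1 moved the median GJ level of genes of G alone to 46.0% of G (30.6% with all libraries). A pseudocount of 0.1 gave 2392 calls. Of the 51 named genes, 0 reversed under any of the 15 alternatives in which they were tested. Several alternatives, such as the 6 libraries alone, leave the difference itself unchanged, and many genes were picked for large differences. The absence of reversals is therefore not read as a result. Calls were lost for 12 of the 51 with the 6 libraries alone, 13 without G replicate 2 and 12 without both first replicates, and gained for 0 in each.

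With replicate number as a block, 1732 genes were called (854 higher, 878 lower). The deviations of same-numbered GJ and G libraries had correlations of -0.203, -0.0386 and -0.171, so the numbers did not pair the libraries. Values rest on 3 libraries a genotype and on FPKM without counts, so low genes have an unknown counting error.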

Other observations

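Of the called genes, 233 of the 885 higher (26.3%) and 241 of the 916 lower (26.3%) shared the number of their ID with others called in the same direction. Most tested genes (89.6%) share their number with another tested gene, and whether called genes do so more often than others was not tested. The lower genes include 11 of Nitab4.5_0001198 and 4 each of Nitab4.5_0001751 and Nitab4.5_0003626, numbers with genes missing from GJ replicate 1 alone. The genes below were chosen after their values were seen.

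Of the 9 tested genes numbered Nitab4.5_0000314, 6 were called higher in GJ, beside 2.51% of all tested genes. Nitab4.5_0000314g0020 had 615, 324 and 273 FPKM in GJ, against 115, 68.3 and 160 FPKM in G. Nitab4.5_0000314g0050 had 461, 258 and 245 FPKM in GJ, against 74.3, 64.4 and 113 FPKM in G. Both were highest in GJ replicate 1 among the hybrid libraries and remained called without it (limma adjusted p = 0.0242 and 0.00429). Without that library the call of Nitab4.5_0000314g0100 was lost (limma adjusted p = 0.118). Nitab4.5_0000314g0070 had 417, 403 and 301 FPKM in GJ, against 145, 131 and 172 FPKM in G, with 128 to 147 FPKM in J.

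Of the 8 tested genes numbered Nitab4.5_0001740, 5 were called lower in GJ and 1, Nitab4.5_0001740g0130, higher, beside 2.6% and 2.51% of all tested genes. Nitab4.5_0001740g0010 had 0, 0.03 and 0 FPKM in GJ, against 14.3, 9.51 and 11.6 FPKM in G, with 6.90 to 10.2 FPKM in J. Nitab4.5_0001740g0130 had the opposite pattern, at 3.28, 2.44 and 2.19 FPKM in GJ and listed at 0 in all G and J libraries.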
